A study of Mus musculus with 6 samples.

Results

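The genes followed here are 10 genes known from basophils and mast cells, namely Kit, Gata2, Cpa3, Mcpt8, Fcer1a, Ms4a2, Cd200r3, Hdc, Il4 and Il13. They were taken by symbol from the array annotation, and all 10 were found, each with 1 row, among 19938 genes that were tested. The cells were liver CD11b+Gr-1+ cells, called myeloid-derived suppressor cells in the labels, sorted from C57BL/6 mice that all bore EL4 tumours, a transplanted T cell lymphoma. Of 6 arrays, 3 held cells from mice injected with Con A (concanavalin A), a lectin that activates T cells and injures the liver, and 3 held cells from mice injected with PBS, called untreated in the titles. Cells were taken 3 hours after the injection in both groups. The labels give the Con A dose both as 12.5 mg/kg and as 12.5 ug/kg, and which is right is not settled. The labels do not give sex or age, and they do not say that each array holds cells of 1 mouse, so the p-values cover the spread among these arrays, part of which may be technical. No step of the sort selected for or against basophils or mast cells by a marker of their own, as far as the labels say.

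Basophils and mast cells are rare granulocytes that carry the high-affinity IgE receptor and release histamine, proteases and type 2 cytokines when that receptor is crosslinked. Basophils circulate and live briefly, whereas mast cells settle in tissue and depend on the receptor KIT. The transcription factor GATA2 is needed for both lineages in mice. Several of these genes are also used elsewhere: neutrophils transcribe Hdc, progenitors carry Kit and Gata2, and T cells make IL-4 and IL-13.

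After Con A, 4 of the 10 genes rose and 0 fell by limma after Benjamini-Hochberg adjustment over all genes (threshold 0.05), where 4.59% of all genes tested rose and 7.22% fell. The genes that rose were Kit, the receptor for stem cell factor, by 2.69-fold, Il4 by 2.00-fold, Gata2 by 1.80-fold and Hdc, the histamine-forming enzyme, by 1.47-fold. The basophil and mast cell proteases Cpa3 and Mcpt8 were also higher on average, by 1.21 and 1.14 on the log2 scale, with SDs of 0.77 for both after Con A and 0.57 and 0.56 after PBS, and neither passed. Unadjusted p-values were under 0.05 for 8 of the 10, all higher, against 24.7% of all genes in either direction. All 10 means were higher after Con A, with a median difference of 0.84 on the log2 scale, against 0.02 over all genes, of which 56.1% had a higher mean. The groups did not overlap in 6 of the 10 genes, where 14.4% of all genes had every Con A array above every PBS array. In RNA from a sorted population, more cells of a type and more RNA per cell cannot be told apart.

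**Figure D1:**
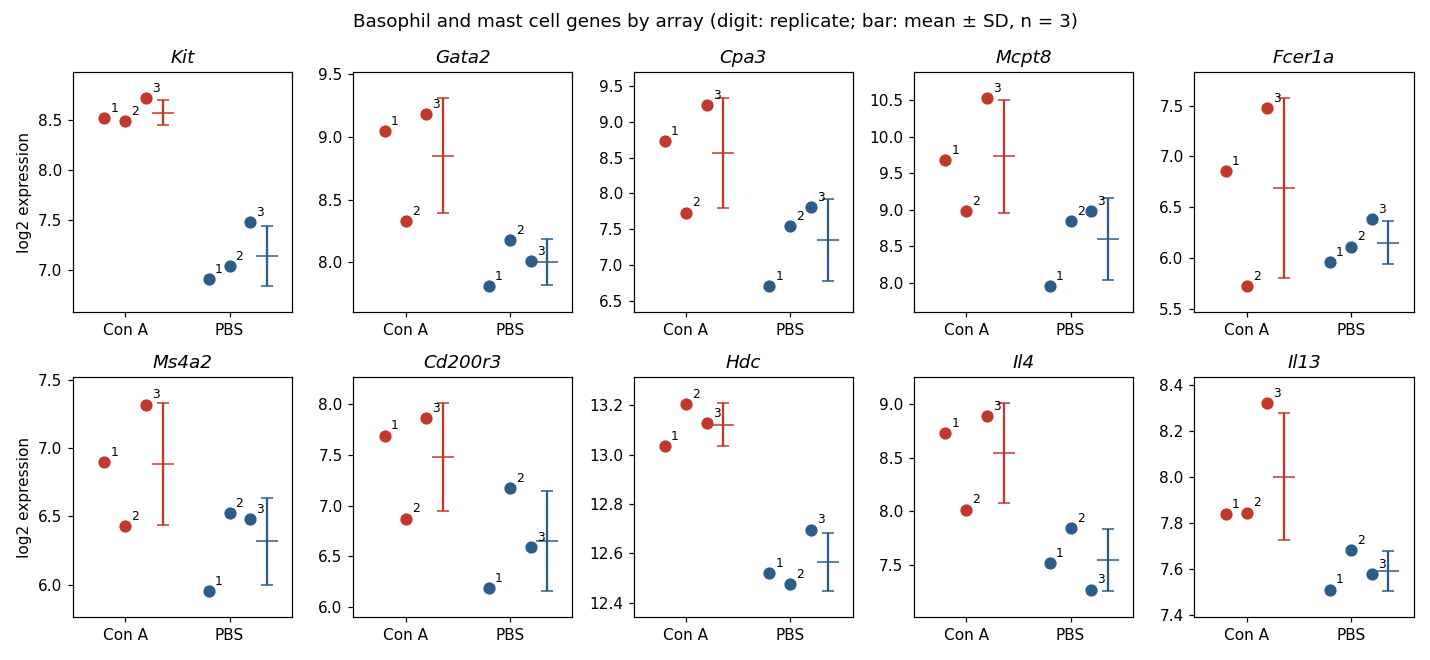
Log2 expression of the 10 genes on each array, Con A left and PBS right, with the replicate number beside each point and the mean and SD (n = 3) as a bar. Kit and Hdc form tight Con A groups above PBS, whereas for Cpa3, Fcer1a, Ms4a2 and Cd200r3 the Con A replicate 2 point lies below at least 1 PBS point.

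The bases just before the transcription start are shown for the members that hold AGATAA there, 1 form of the GATA motif, since Gata2 is itself a member. All 10 members had 1 or 2 start windows in RefSeq (GRCm38.p6), 13 in all, and the 250 bases before each start were searched on both strands for AGATAA. The motif was in 5 of the 10 members, and in 11.4% of 27025 genes with such a window (9.99% of 32851 windows). Each line gives the 250 bases before the start of 1 gene, 5′ to 3′ along that gene, with AGATAA or its reverse complement in capitals.
Cpa3, chr3:20242182-20242431, minus strand: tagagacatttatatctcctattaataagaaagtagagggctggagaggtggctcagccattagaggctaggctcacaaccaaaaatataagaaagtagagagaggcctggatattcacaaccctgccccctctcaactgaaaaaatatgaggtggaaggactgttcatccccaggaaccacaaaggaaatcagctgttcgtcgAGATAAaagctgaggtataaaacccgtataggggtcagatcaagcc
Fcer1a, chr1:173227230-173227479, minus strand: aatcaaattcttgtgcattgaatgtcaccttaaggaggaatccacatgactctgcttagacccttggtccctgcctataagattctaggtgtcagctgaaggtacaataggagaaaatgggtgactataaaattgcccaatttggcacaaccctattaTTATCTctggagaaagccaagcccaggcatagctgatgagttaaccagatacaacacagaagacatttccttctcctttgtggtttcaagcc
Ms4a2, chr19:11623720-11623969, minus strand: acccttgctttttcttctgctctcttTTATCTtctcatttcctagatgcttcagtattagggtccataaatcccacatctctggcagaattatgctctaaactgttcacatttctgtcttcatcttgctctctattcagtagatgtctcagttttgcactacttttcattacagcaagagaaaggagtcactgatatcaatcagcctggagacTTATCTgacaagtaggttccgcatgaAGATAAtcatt
Cd200r3, chr16:44943428-44943677, plus strand: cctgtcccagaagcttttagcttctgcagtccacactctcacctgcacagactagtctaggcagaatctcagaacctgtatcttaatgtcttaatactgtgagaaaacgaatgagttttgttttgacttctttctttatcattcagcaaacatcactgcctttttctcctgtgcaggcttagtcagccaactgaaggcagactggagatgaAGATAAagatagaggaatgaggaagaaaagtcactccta
Il13, chr11:53634703-53634952, minus strand: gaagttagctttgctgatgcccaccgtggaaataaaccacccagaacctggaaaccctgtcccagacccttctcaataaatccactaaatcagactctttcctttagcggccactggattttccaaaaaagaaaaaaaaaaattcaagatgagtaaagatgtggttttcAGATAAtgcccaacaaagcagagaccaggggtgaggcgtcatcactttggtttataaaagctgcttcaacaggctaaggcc
In Cpa3 the motif began 46 bases before the start, in Cd200r3 39 bases and in Il13 81 bases before it, each on the gene's own strand. Fcer1a held it on the opposite strand, at 92 bases, and Ms4a2 held it 3 times, at 224, 37 and 11 bases, the last on its own strand. The windows of Kit, Gata2, Mcpt8, Hdc and Il4 held no AGATAA on either strand. Kit, Gata2, Hdc and Il4 passed the adjusted threshold and Mcpt8 did not, nor did any of the 5 members with AGATAA. The related TGATAA was in 1 member, Cd200r3, and in 9.21% of genes. Forms of the GATA motif that end in G were not searched. The Hdc window and 1 window of Il4 hold such a form, TGATAG, so the split of members above holds for AGATAA only. The letters TTCNNNGAA, a STAT motif, and CACGTG, an E-box, were in 0 members, and in 8.13% and 6.86% of genes. The E-box CATGTG was in Fcer1a and Il4, and in 13.8% of genes. These matches describe the letters in the windows and say nothing of binding, and a link to Gata2 was not tested.

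Kit read 8.51, 8.49 and 8.71 in Con A replicates 1, 2 and 3, against 6.91, 7.03 and 7.48 in PBS replicates 1, 2 and 3. The groups lay apart, with more than 1 log2 unit between the highest PBS array and the lowest Con A array. The means were 8.57 ± 0.13 after Con A and 7.14 ± 0.30 after PBS (SD, n = 3 each), a difference of 1.43 (95% interval 1.07 to 1.79, limma adjusted p = 0.00176). It had the largest difference of the 10 genes and the smallest adjusted p, and the call held with any 1 array left out. Kitl, which encodes the ligand of KIT, read 4.59 to 4.77 after Con A and 4.67 to 4.84 after PBS, under the median of all rows (7.06) on every array, with a difference of -0.07 (adjusted p = 0.688 by limma). Of 13 measured genes of KIT and its signalling, Kit included, 2 rose and 1 fell, where 4.59% of all genes rose and 7.22% fell. Besides Kit, Gab2, an adaptor that carries KIT and IgE receptor signals to PI3 kinase, rose by 1.09 (interval 0.54 to 1.63), and Sh2b3, an adaptor that dampens KIT signals, fell by 0.63 (interval of the difference -0.89 to -0.38). Gab2 read 11.17, 11.18 and 11.35 after Con A, against 9.94, 9.77 and 10.74 after PBS. PBS replicate 3 stood well above the other PBS arrays, and the Gab2 call was lost when any array but that one was left out, at adjusted p up to 0.102. The Sh2b3 call was lost at 0.0509 without PBS replicate 1. The kinase genes and phosphatase genes Pik3cd, Pik3r1, Ptpn6 and Ptpn11 differed by -0.01 to 0.25 and did not pass.

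Gata2 read 9.04, 8.33 and 9.18 in the Con A arrays, against 7.81, 8.18 and 8.01 in the PBS arrays. The value of Con A replicate 2 lay nearer to the PBS arrays than to the other Con A arrays, though still above them. The difference was 0.85 (interval 0.34 to 1.36, adjusted p = 0.0468 by limma). That call was close to the threshold. It held without Con A replicate 2 (adjusted p = 0.0105) and was lost without any other array, at 0.135 and 0.133 without Con A replicates 1 and 3 and at 0.164, 0.0677 and 0.0655 without PBS replicates 1, 2 and 3.

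Of 18 transcription factors of the basophil and mast cell lineage, Gata2 included, 6 rose and 3 fell. Over all genes tested, 4.59% rose and 7.22% fell. Gata1, a GATA factor shared with eosinophils, megakaryocytes and red cell precursors, read 7.82, 7.57 and 8.06 after Con A, against 6.40, 6.94 and 6.83 after PBS. Its groups did not overlap, and it rose by 1.09 (interval 0.69 to 1.49, adjusted p = 0.00756 by limma), a call that held without any 1 array. Its cofactor gene Zfpm1 rose by 0.30 at an adjusted p of 0.0425, which was lost in all 6 fits with 1 array left out (up to 0.132). Cebpa, a factor that mouse basophils need and mast cells switch off, fell by 1.07 to 8.55 ± 0.14 after Con A, against 9.61 ± 0.14 after PBS (adjusted p = 0.0015 by limma, held in all 6 such fits). Cebpa also marks granulocyte and monocyte precursors. Nfil3 rose by 1.21, Irf8 by 0.98 and Cebpb by 0.56, while Hes1 fell by 0.69 and Ikzf1, which encodes Ikaros, fell by 0.48. The calls of Nfil3, Irf8, Cebpb, Hes1 and Ikzf1 each ended without at least 1 of Con A replicate 2, Con A replicate 3, PBS replicate 1 and PBS replicate 2, at adjusted p up to 0.075, 0.0807, 0.0975, 0.0674 and 0.0701. Mitf, the mast cell factor downstream of KIT, read 9.12, 9.61 and 9.79 after Con A, against 9.53, 9.29 and 9.85 after PBS, and its groups overlapped (difference -0.05, interval -0.52 to 0.41).

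**Figure D2:**
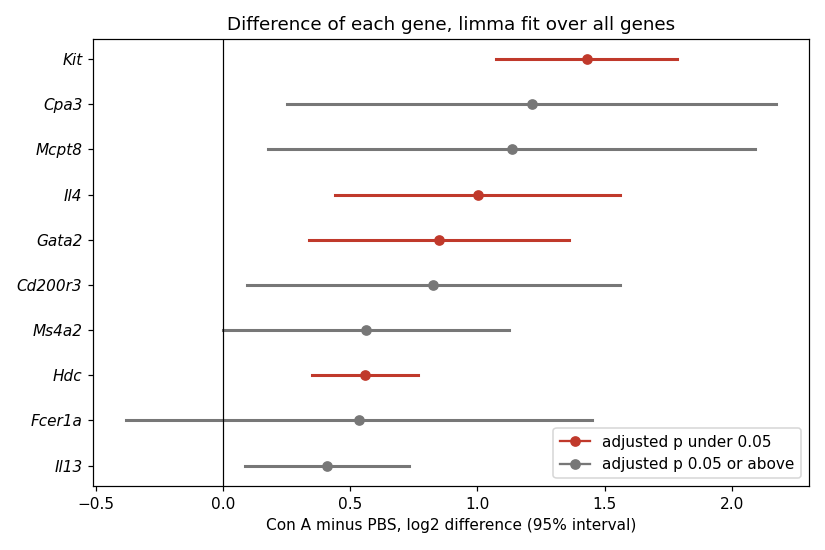
Con A minus PBS difference of each of the 10 genes on the log2 scale, with the 95% interval of the limma fit over all genes. Kit, Il4, Gata2 and Hdc passed the adjusted threshold, the interval of Kit lies above 1, and those of Fcer1a and Ms4a2 include 0.

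Cpa3, which encodes the granule protease carboxypeptidase A3 of mast cells, basophils and their precursors, read 8.73, 7.73 and 9.24 in the Con A arrays, against 6.71, 7.54 and 7.81 in the PBS arrays. The groups overlapped, since Con A replicate 2 lay below PBS replicate 3. The difference was 1.21 (interval 0.25 to 2.17, adjusted p = 0.113 by limma), and it was 1.63 without Con A replicate 2 (adjusted p = 0.0484). Mcpt8, a serine protease that in mice marks basophils, read 9.68, 8.98 and 10.53 after Con A, against 7.95, 8.85 and 8.98 after PBS. The lowest Con A array, replicate 2, read 8.983 and the highest PBS array, replicate 3, 8.982, so the groups met without overlapping. The Mcpt8 difference was 1.14 (interval 0.18 to 2.09, adjusted p = 0.133 by limma), and 1.51 without Con A replicate 2 (adjusted p = 0.0797).

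Of 12 measured granule protease and proteoglycan genes, Cpa3 and Mcpt8 included, 0 passed the limma test. An unadjusted p under 0.05 was found for 3, against 24.7% of all genes. These were Cpa3 and Mcpt8, which were higher, and Ndst2, which was lower after Con A. The Ndst2 difference was -0.33 (interval -0.54 to -0.12, adjusted p = 0.0547 by limma). Prss34, the other protease typical of mouse basophils, had the same order of arrays as Mcpt8 within each group, with 8.93, 8.23 and 9.65 after Con A, against 7.88, 8.37 and 8.63 after PBS. Its groups overlapped (difference 0.64, interval -0.17 to 1.46). The proteases typical of mature mouse mast cells stayed low on every array. Cma1 read 5.65 to 5.84 after Con A and 5.58 to 5.64 after PBS, Tpsb2 6.37 to 6.58 and 6.37 to 6.50, and Mcpt4 5.27 to 5.28 and 5.25 to 5.48. Mcpt1, Mcpt2, Mcpt4, Cma1, Tpsb2, Tpsab1 and Tpsg1 lay under the median of all rows on all 6 arrays, and their differences lay between -0.18 and 0.15. The mast cell receptor gene Mrgprb2 read 3.70 to 3.75 after Con A and 3.67 to 3.77 after PBS. The deposited values carry no detection calls, so a low reading is not proof that a transcript is absent.

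Fcer1a and Ms4a2 encode the alpha chain, which binds IgE, and the beta chain, which amplifies the signal, of the high-affinity IgE receptor. Fcer1a read 6.86, 5.73 and 7.48 after Con A, against 5.96, 6.11 and 6.38 after PBS. The Con A group held the highest and the lowest of the 6 values, in replicates 3 and 2. The difference was 0.53 (interval -0.38 to 1.45, adjusted p = 0.467 by limma), 1.01 without Con A replicate 2 (adjusted p = 0.0482) and 0.14 without Con A replicate 3 (0.833). Ms4a2 read 6.90, 6.43 and 7.32 after Con A, against 5.95, 6.53 and 6.48 after PBS. Again Con A replicate 2 stood among the PBS arrays, and the difference was 0.56 (interval -0.001 to 1.12, adjusted p = 0.203 by limma). Both genes read under 7.06, the median of all rows, on every array but Con A replicate 3. Whether differences are understated in that range was not tested.

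Of 19 measured genes of this receptor and its signalling, 2 rose and 4 fell, where 4.59% of all genes rose and 7.22% fell. The shared gamma chain gene Fcer1g, used by many myeloid receptors, read 13.28 to 13.34 after Con A and 13.35 to 13.43 after PBS and did not pass (adjusted p = 0.574 by limma). Inpp5d, the lipid phosphatase SHIP1, fell by 0.61 (interval of the difference -0.76 to -0.45), with 11.29 to 11.33 after Con A and 11.89 to 11.96 after PBS. Cd300a, an inhibitory receptor, fell by 0.75, and Cd200r1, the inhibitory receptor for CD200, fell by 0.97, and the calls of all 3 held with any 1 array left out. Pilra, another inhibitory receptor of the list, differed by -0.07 and did not pass (adjusted p = 0.642 by limma). Plcg2, a phospholipase that releases calcium signals, fell by 0.34, and Lcp2, the adaptor SLP-76, rose by 0.48. The Plcg2 call was lost without any array but PBS replicate 3 (adjusted p up to 0.104), and the Lcp2 call without Con A replicate 2, Con A replicate 3 or PBS replicate 2 (up to 0.0639). All of these are widely transcribed in myeloid cells, and which cells of the sort they came from was not measured.

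Cd200r3, an activating receptor of mouse basophils and mast cells, read 7.69, 6.87 and 7.87 in the Con A arrays, against 6.19, 7.17 and 6.59 in the PBS arrays. Its groups overlapped, as Con A replicate 2 lay below PBS replicate 2, and the difference was 0.83 (interval 0.09 to 1.56, adjusted p = 0.152 by limma). Its family member Cd200r4 had nearly equal group means (difference 0.001, interval -0.51 to 0.52), while Cd200r1 was lower after Con A, as given above. Of 22 measured surface receptor genes of basophils and mast cells, 5 rose and 1 fell, where 4.59% of all genes rose and 7.22% fell. Cd69, an early activation marker of many leukocytes, rose by 2.95 and read 12.22, 12.39 and 12.51 after Con A, against 9.003, 9.127 and 10.154 after PBS. Its groups lay more than 2 log2 units apart. Il18r1 and Il18rap, the chains of the IL-18 receptor, rose by 1.07 and 0.67, and these calls and that of Cd69 held with any 1 array left out. Csf2rb, the chain shared by the IL-3, IL-5 and GM-CSF receptors, rose by 0.56 and Siglecf, an eosinophil lectin, by 0.67. The Csf2rb call was lost without any array but PBS replicate 3 (adjusted p up to 0.132), and the Siglecf call without any array but Con A replicate 2 (up to 0.14). Il3ra, the chain that binds the basophil growth factor IL-3, read 8.72 on all 3 Con A arrays, against 8.66, 8.68 and 8.47 after PBS, and did not pass (adjusted p = 0.438 by limma). Itga2, the integrin chain CD49b of basophils and NK cells, read 8.44, 7.91 and 8.47 after Con A, against 7.62, 8.19 and 7.57 after PBS, and overlapped.

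**Figure D3:**
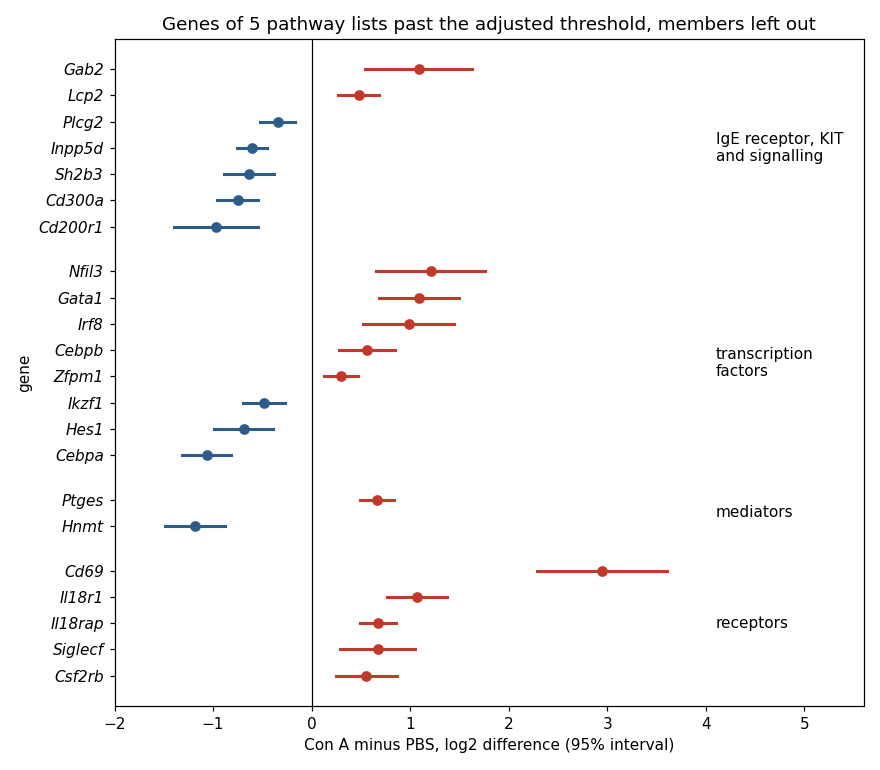
Con A minus PBS difference on the log2 scale, with the 95% interval, for genes past the adjusted threshold in 5 pathway lists, grouped by role, with rises in red and falls in blue. Hnmt, Cebpa and Cd200r1 lie farthest below 0, and Cd69 stands farthest from 0.

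Hdc, histidine decarboxylase, read 13.03, 13.21 and 13.13 in the Con A arrays, against 12.52, 12.48 and 12.70 in the PBS arrays. The groups did not overlap and both were narrow, with SDs of 0.09 after Con A and 0.12 after PBS. Hdc rose by 0.56 (interval 0.35 to 0.77, adjusted p = 0.00772 by limma), and the call held with any 1 array left out. The highest value of any row lay between 14.2 and 14.3 on the 6 arrays, over 1 log2 unit above Hdc. Of 11 measured genes of amine and lipid mediators, Hdc included, 2 rose and 1 fell, where 4.59% of all genes rose and 7.22% fell. Hnmt, the methyltransferase that inactivates histamine, moved the other way and read 5.80, 6.08 and 6.22 after Con A, against 7.40, 7.08 and 7.19 after PBS. It fell by 1.19 (interval of the difference -1.49 to -0.88, adjusted p = 0.00193 by limma), with its Con A values under the median of all rows. Ptges, the prostaglandin E synthase, rose by 0.66, with 10.14, 10.14 and 9.99 after Con A against 9.45, 9.43 and 9.43 after PBS. Slc18a2, the transporter that loads histamine into granules, read 7.71, 7.32 and 8.17 after Con A, against 7.38, 7.54 and 7.30 after PBS. Its Con A arrays stood in the same order as those of Mcpt8, and its groups overlapped.

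Il4 read 8.73, 8.02 and 8.89 in the Con A arrays, against 7.52, 7.85 and 7.27 in the PBS arrays. The lowest Con A array, replicate 2, lay 0.17 above the highest PBS array, replicate 2. The means were 8.54 ± 0.46 after Con A and 7.54 ± 0.29 after PBS (SD, n = 3 each), and the difference was 1.00 (interval 0.44 to 1.56, adjusted p = 0.0369 by limma). The call held without Con A replicate 2 (adjusted p = 0.0153) and without PBS replicate 2 (0.0376). It was lost without Con A replicate 1 (0.111), Con A replicate 3 (0.112), PBS replicate 1 (0.127) and PBS replicate 3 (0.0635). Il13 read 7.84, 7.85 and 8.32 after Con A, against 7.51, 7.68 and 7.58 after PBS. Its groups did not overlap, but the difference of 0.41 (interval 0.09 to 0.73) did not pass, at an adjusted p of 0.111 by limma.

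Of 14 measured type 2 cytokines and their inducers, Il4 and Il13 included, 3 rose and the others did not pass, where 4.59% of all genes rose. Besides Il4 these were the chemokine genes Ccl24, which encodes an eosinophil attractant, by 3.78, and Ccl4, by 1.84. The Ccl4 call ended without Con A replicate 2, Con A replicate 3, PBS replicate 1 or PBS replicate 2, at adjusted p up to 0.0874. Il5, Il9, Il3, Il31, Csf2 and Tslp all read under the median of all rows on every array, with differences from -0.03 to 0.25. Of 19 measured receptors and targets of IL-4 and IL-13, 5 rose and the others did not pass, against the same 4.59% of all genes. Arg1 and Mrc1, which IL-4 induces in mouse macrophages, rose by 1.00 and 1.69, and the signalling inhibitors Socs1 and Cish, which other cytokines also induce, rose by 3.23 and 1.83. Retnla and Chil3, other targets in mouse macrophages, differed by 0.49 and 0.22 and did not pass. The receptor chain Il4ra read 11.78, 12.02 and 12.09 after Con A, against 11.47, 11.41 and 11.97 after PBS, and overlapped.

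Most of the 10 genes had the same highest and lowest Con A arrays and the same lowest PBS array. Con A replicate 3 was the highest Con A array for 9 of them and Con A replicate 2 the lowest for 8, whereas over all genes these arrays held those places in 29.2% and 31.2% of cases. Hdc was the exception at both ends, with its highest Con A value in replicate 2. Among PBS arrays, replicate 1 was the lowest for 8 of the 10, against 25.8% of all genes, and the highest was replicate 2 for 5 and replicate 3 for 5. Con A replicate 3 was also the highest array in list mean for eosinophil, NK cell, T cell, innate lymphoid and progenitor markers. PBS replicate 1 was also the lowest for eosinophil, T cell and innate lymphoid markers, so these places were not particular to the 10 genes. The highest was Con A replicate 2 for platelet and hepatocyte markers and Con A replicate 1 for granulocytic ones. Averaged over the 10 genes, Con A replicates 1, 2 and 3 lay 0.91, 0.37 and 1.27 above the PBS mean, and PBS replicates 1, 2 and 3 at -0.29, 0.15 and 0.14. Cpa3, for example, lay 1.37, 0.38 and 1.89 above its PBS mean in the Con A arrays, whereas Kit lay 1.37, 1.34 and 1.57 above its own. Without Con A replicate 2, 6 of the 10 genes passed the test, and 1272 of all 19938 genes did. Without PBS replicate 2, 3 of the 10 and 1690 of all genes passed. Without any 1 of the other arrays, 2 of the 10 passed, with 1140 to 2765 of all genes. With all arrays kept, 4 of the 10 and 2355 of all genes passed.

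**Figure D4:**
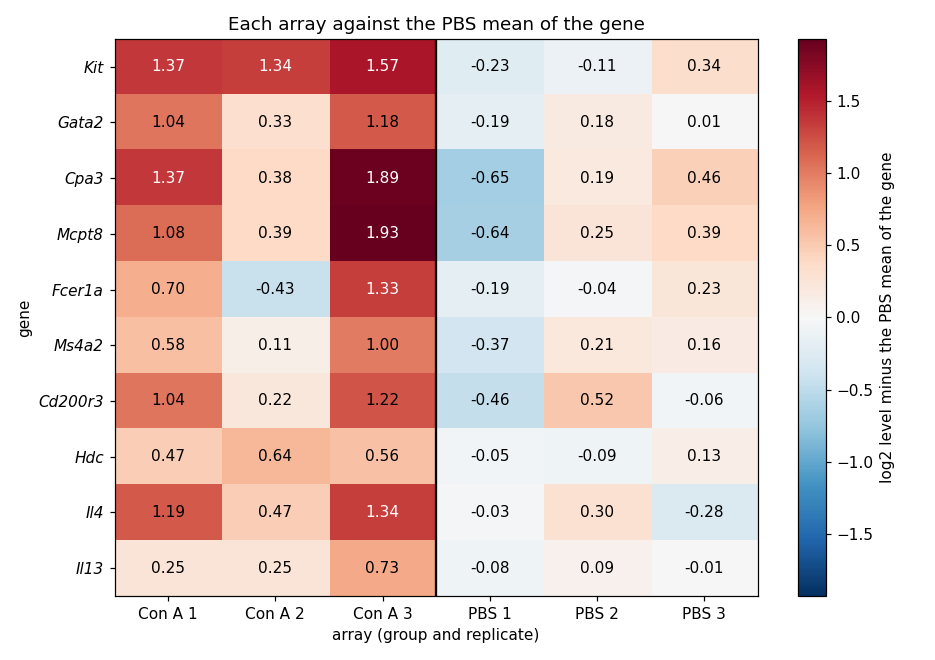
Log2 level of each gene on each array minus the PBS mean of that gene, Con A arrays left of the line and PBS arrays right of it. Con A replicate 2 holds the lowest Con A value for 8 of 10 genes, down to -0.43 for Fcer1a, and the highest for Hdc.

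Markers of other cells were set beside this order, and their part in the results was not tested. The counts of these lists, here and in the paragraphs that follow, stand beside 4.59% of all genes that rose and 7.22% that fell. Of 9 eosinophil markers measured, 5 rose, with a median of 0.67 over the list, and their mean lay 0.70, 0.31 and 0.75 above the PBS mean in the Con A arrays and at -0.23, 0.29 and -0.06 in the PBS arrays. Epx, eosinophil peroxidase, read 11.43, 10.66 and 11.39 after Con A, against 9.69, 10.61 and 9.79 after PBS. The lowest Con A array was replicate 2 there too, while among PBS arrays replicate 2 stood out. Epx, Prg2 and Prg3 rose by 1.13, 1.05 and 0.81, and each call ended without Con A replicate 1, Con A replicate 3, PBS replicate 1 or PBS replicate 3 (adjusted p up to 0.161). Ear6, an eosinophil ribonuclease, rose by 0.57, and its call ended without PBS replicate 1, at 0.0543. NK cell markers were also lowest in Con A replicate 2, with list means of 0.38, -0.33 and 0.69 after Con A, against -0.19, -0.05 and 0.24 after PBS. Of 12 NK cell markers 2 rose, Gzmb by 1.75 and Ifng by 1.29, and these calls ended without PBS replicate 1 (0.0737 and 0.062) and, for Gzmb, also without Con A replicate 1. The median difference over the NK cell list was 0.024, and 7 of the 12 means were higher after Con A.

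Markers of T cells, EL4 cells included, bear on Il4 and Il13 and were low. Of 15 measured, 9 lay under the median of all rows on every array, and their mean level was 6.56 to 6.78 after Con A and 6.41 to 6.63 after PBS. Cd3e read 7.18, 7.31 and 7.36 after Con A, against 7.20, 7.29 and 7.12 after PBS, and 1 gene, the costimulatory receptor Icos, rose, by 0.65, a call that ended without Con A replicate 2 or 3 (adjusted p up to 0.0688). Among 9 markers of type 2 innate lymphoid cells, which also make IL-13, Il2ra rose by 1.94 with Icos. The Il2ra call ended without Con A replicate 1, Con A replicate 3, PBS replicate 1 or PBS replicate 2 (up to 0.101). Gata3, their defining factor, read 6.14 to 6.36 after Con A and 6.20 to 6.28 after PBS. Of 10 stem and progenitor markers, which bear on Kit and Gata2, 1 passed, Slamf1, which rose by 2.22. Slamf1 is also carried by activated leukocytes. Cd34 read 6.06 to 6.36 after Con A and 6.22 to 6.48 after PBS, and Flt3 6.72 to 6.84 and 6.79 to 6.90, all under the median of all rows. Of the 10 progenitor markers, 6 lay under that median on every array, and the brightest were Cd48 and Gfi1b. Gfi1b read 8.85 to 9.11 after Con A and 8.75 to 9.13 after PBS.

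The array of Con A replicate 2 stood apart in platelet and hepatocyte markers. The mean of 7 platelet and megakaryocyte genes lay 0.02, 1.46 and 0.82 above the PBS mean in Con A replicates 1, 2 and 3, and that of 12 hepatocyte genes 0.02, 0.78 and 0.02, while PBS arrays lay between -0.11 and 0.19 for both lists. Itga2b, a platelet integrin chain that mast cell precursors also carry, was the 1 platelet gene that rose, by 0.73, and 0 of 12 hepatocyte genes passed by limma, adjusted or unadjusted. Alb, which encodes albumin, read 9.01, 11.17 and 9.10 after Con A, against 8.69, 8.92 and 9.09 after PBS, and Ppbp, a platelet chemokine gene, 7.002, 11.715 and 10.114 after Con A, against 6.427, 6.694 and 9.125 after PBS. In both, Con A replicate 2 was the highest array, by more than 1 log2 unit. The granulocytic markers that fill this sort differed little on average, with list means of 0.04 to 0.17 after Con A and -0.05 to 0.08 after PBS, and 1 of 15, Mmp9, fell, by 0.58. Elane, Mpo and Prtn3 of that list had higher means after Con A without passing, as given in the last paragraph. The granule protein genes Lcn2 and Ltf differed by 0.001 and -0.003. Monocytic markers were lower after Con A, by 0.60 to 1.11 in list mean, and of 10 measured, Ccr2, Cx3cr1, F13a1 and Fn1 fell and Irf8 and Cd14 rose. The Fn1 call ended without PBS replicate 1 (0.076), and those of Irf8 and Cd14 without that array or Con A replicates 2 or 3, and for Irf8 also without PBS replicate 2 (0.0807 and 0.0787 at most). Of 7 B cell markers 1 fell, Ms4a1 by 0.45, a call that ended without Con A replicates 1 or 2 or PBS replicates 1 or 2 (adjusted p up to 0.106). Other high-reading markers that did not pass were Gzma at 0.95, Il7r at 0.46, Cd48 at -0.51, Cd79b at -0.62 and Csf1r at -0.78. Adgre1, Cd5, Gfi1b, Itgb3, Hp, Trf, Ighm and the hepatocyte gene Fgb also did not pass, with differences from -0.40 to 0.52.

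**Figure D5:**
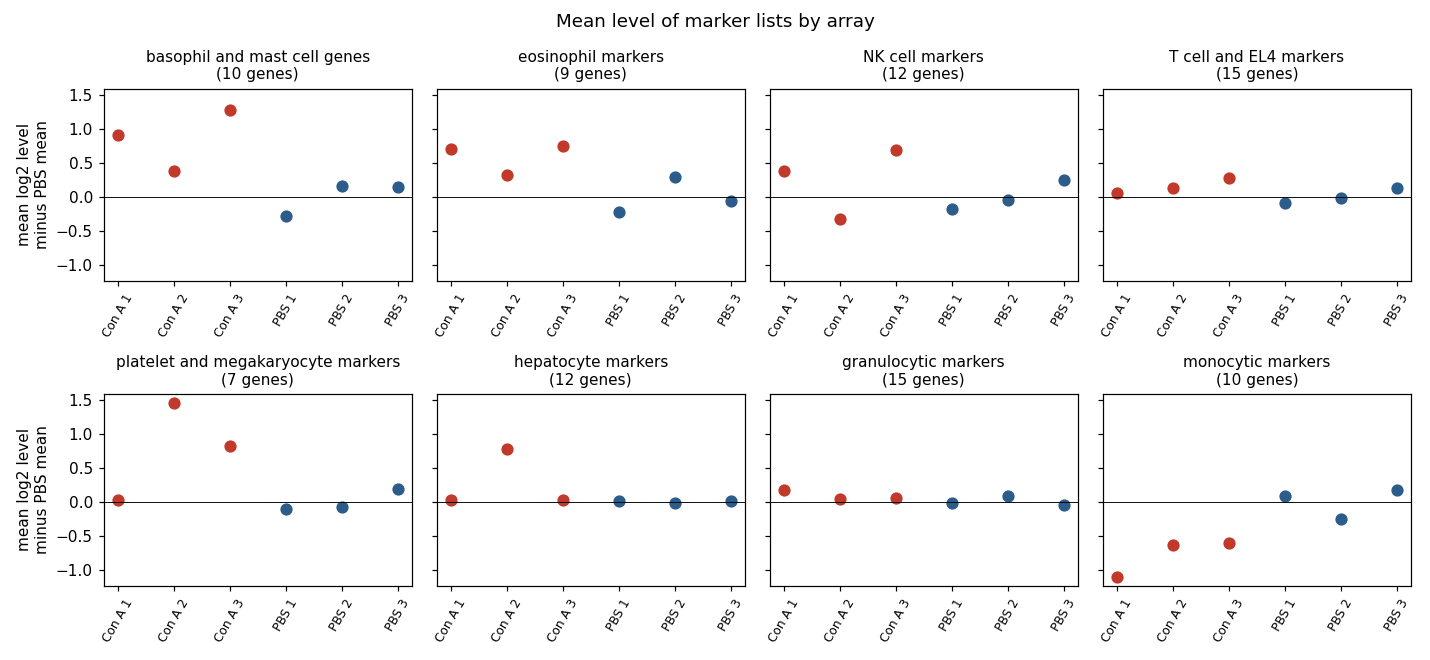
Mean log2 level of 8 marker lists on each array, minus the PBS mean of that list, Con A arrays in red on the left and PBS arrays in blue on the right. Con A replicate 2 is the lowest Con A array for basophil and mast cell, eosinophil and NK cell genes and the highest for platelet and hepatocyte genes.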

How the data were processed

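Per the labels' protocols, whole-transcriptome amplification of total RNA was followed by biotin labelling for an Affymetrix array. The authors deposited log2 values made with RMA and Partek, named without versions in the submitters' processing notes. RMA can compress differences of dim and of very bright genes, which was not measured here. No genome build is named in the labels. Array medians lay between 7.05 and 7.08.

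The platform annotation gave 1 symbol to 21789 of 35556 rows. The row with the highest mean stood for each of 19938 genes. The comparison of Con A with PBS used limma 3.58.1 (R 4.3.3; lmFit, eBayes, group only, two-sided), adjusted by Benjamini-Hochberg over all genes. Other software was matplotlib 3.10.9, pandas 2.3.3 and Python 3.11.15. The fit was tested on simulated data. Promoter sequences are from RefSeq (GRCm38.p6).

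The members and the other 18 lists (229 further genes, 208 tested) were chosen with earlier results of these data known. Named were all members, up to 6 genes past the threshold per list (2 largest differences where none passed), the brightest markers of other cells, and further genes of a list given as values after these were seen. Lists are described by counts and medians, without a set test. There were 0 identical pairs of arrays. The number of arrays limits the precision.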

Additional observations from a re-analysis of the deposited data

How the results depend on the processing

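Under 17 alternatives the 10 genes kept their direction in all 166 values, of which 144 also kept their side of the threshold, 17 lost a call and 5 gained one. Kit passed in 17 of 17 alternatives, Hdc in 16, Il4 in 10 and Gata2 in 8. Of the 10 genes, 4 passed in the analysis reported, 2 with robust eBayes (Kit and Hdc), 2 with every row of the array tested (Kit and Hdc) and 1, Kit, with an ordinary linear model, which gave 671 genes in all against 2355 and 15 further genes of the other lists against 45. With 1 array left out the count of the 10 lay between 2 and 6, that of all genes between 1140 and 2765, and that of the further genes of the other lists between 23 and 51. The count of all genes was 1140 when PBS replicate 1 was left out, and leaving out Con A replicate 3 gave 1480 and Con A replicate 2 gave 1272. In a fit with replicate number as a block, 6 of the 10 passed, Cpa3 and Mcpt8 being added at adjusted p = 0.0473 and 0.0476, with 2539 genes in all and 53 further genes of the other lists. Same-numbered arrays deviated together for numbers 1 and 3 (r = 0.228 and 0.555 over genes) but not for 2 (-0.17). Con A replicate 1 deviated more closely with PBS replicate 2 (r = 0.538) than with PBS replicate 1, so the numbers are not taken as pairs. Filters on low values left Fcer1a and Ms4a2 out of the test. The causes were not tested. Fcer1a and Ms4a2 each read under the median of all rows on 5 of the 6 arrays.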

Other observations

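Some members lie in gene clusters. In RefSeq order (GRCm38.p6), the 2 nearest tested genes on each side of the 10 members came to 36 further genes. Of these, 3 rose and 4 fell, where 4.59% of all genes tested rose and 7.22% fell. These neighbours were chosen after the values of the members were seen. Il4 and Il13 are next to each other on chromosome 11, between Kif3a and Rad50, which differed by -0.20 and -0.07 and did not pass (adjusted p = 0.405 and 0.72 by limma), and Il5, beyond Rad50, differed by 0.002. Mcpt8 lies on chromosome 14 between the mast cell protease gene Mcpt4, which differed by -0.12, and Ctsg, which encodes the neutrophil protease cathepsin G. Ctsg read 8.48, 8.08 and 8.38 in the Con A arrays, against 7.15, 7.94 and 7.38 in the PBS arrays, and rose by 0.83 (adjusted p = 0.0407 by limma). That call was close to the threshold, and whether it held with 1 array left out was not examined. The neighbours of Ms4a2 include Ms4a3, a gene of granulocyte precursors and basophils. It read 9.79, 9.43 and 9.52 after Con A, against 8.22, 9.42 and 8.20 after PBS, and PBS replicate 2 stood level with the Con A arrays (difference 0.96, adjusted p = 0.1 by limma). Kit lies between Pdgfra and Kdr, receptor kinase genes that differed by 0.03 and -0.02 and read under the median of all rows on every array.

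The early neutrophil granule genes Elane, Mpo and Prtn3, which granulocyte precursors transcribe, were measured with the granulocytic markers. Mpo read 8.04, 7.28 and 7.46 after Con A, against 6.59, 7.05 and 6.94 after PBS, without overlap and without passing (difference 0.73, adjusted p = 0.0653 by limma). Elane differed by 0.76 and Prtn3 by 0.38, and their arrays overlapped. PBS replicate 1 was the lowest PBS array for all 3, as it was for 8 of the basophil and mast cell genes.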
